A study of Mus musculus with 11 samples.

Results

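The natriuretic peptide genes Nppa and Nppb, the receptor genes Npr1, Npr2 and Npr3, and the fetal or stress genes Myh7, Acta1, Ankrd1 and Tnni1 were followed through infarction and ADAM10 inhibition in the mouse heart. These 9 genes were taken by symbol from the 55421 gene rows of the count table, and all 9 passed the filter on low counts in each comparison. RNA from 11 mouse hearts was sequenced with 1 library per mouse, so that p-values reflect the spread between mice. All mice were female C57BL/6J animals aged 8 weeks. Infarction was made by permanent ligation of the left anterior descending (LAD) coronary artery, and the infarct was taken with its border zone after 3 days (the labels name the border zone alone). Of the infarcted mice, 4 received the ADAM10 inhibitor GI254023X at 100 mg/kg (A10i) and 4 received the solvent DMSO, each from osmotic minipumps. The other 3 mice were sham-operated, also received DMSO and gave healthy heart tissue, and their labels name no time after surgery. Infarction and the region sampled therefore cannot be told apart in comparisons with Sham, and A10i was given to infarcted mice alone.

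Cardiomyocytes store the atrial natriuretic peptide (ANP, from Nppa) and release the B-type peptide (BNP, from Nppb) when the wall of the heart is stretched, and both peptides lower blood pressure and blood volume. The receptors encoded by Npr1 and Npr2 are guanylyl cyclases that make cyclic GMP, whereas the receptor encoded by Npr3 takes the peptides up and removes them. The fetal ventricle expresses the peptides together with sarcomere isoforms that adult mouse ventricles largely replace, and the diseased ventricle turns many of these genes on again.

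The libraries held 21702623 to 29511768 counts on genes. Mitochondrial genes took 21.5 to 22.2% of the counts in Sham, 14.8 to 18.6% in DMSO and 15.7 to 17.9% in A10i. All 12 genes of a cardiomyocyte marker list were measured in each group, at a mean of 12.2 to 12.3 log2 CPM (counts scaled to the same library size) in Sham libraries, 11.4 to 11.9 in DMSO and 11.5 to 12.0 in A10i. In bulk tissue, fewer cardiomyocytes and less of an RNA per cardiomyocyte cannot be told apart. Skeletal muscle expresses Acta1 and Tnni1, and the summed level of 10 skeletal muscle markers was 3.38 to 4.76 CPM in Sham, 4.005 to 9.77 in DMSO and 5.57 to 7.10 in A10i. Against Sham, 1 of 5 tested was called higher in DMSO (median log2 fold change 1.33) and 1 of 6 in A10i (median 0.37). No gene of that list exceeded 111 counts in any library, a limit above the counts of Tnni1, and the part of skeletal muscle in either member was not tested. Values are given below as normalized counts, the counts divided by the library size after TMM scaling and multiplied by the mean of these sizes over the 11 libraries.

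The promoters are shown first, as a description, and the part of any factor in the changes below was not tested. From the RefSeq promoter table (GRCm38.p6), which held all 9 members, the 250 bases before the start were searched on both strands, as were all 32851 promoters of that length. The letters TATAAA of the TATA box were held by 12.4% of all promoters. For GATA factors the letters AGATAA were sought, which 9.99% of all promoters held. TEAD factors, which Hippo signalling controls, bind CATTCC, and 12.6% held it. The letters AAGTGG of NKX2-5 were in 14.1% and the CArG box of serum response factor in 1.47%. Capitals mark the matches, and a match is only a match of letters. Other forms of these sites were not searched, so unmarked letters do not show that a site is absent.
Nppa promoter, chr4:148000472-148000721, plus strand: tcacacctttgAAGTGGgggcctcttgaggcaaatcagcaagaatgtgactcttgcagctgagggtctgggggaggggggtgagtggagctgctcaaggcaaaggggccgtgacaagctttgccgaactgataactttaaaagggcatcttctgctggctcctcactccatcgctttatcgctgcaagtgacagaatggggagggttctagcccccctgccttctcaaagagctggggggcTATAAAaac
Acta1 promoter, chr8:123894776-123895025, minus strand: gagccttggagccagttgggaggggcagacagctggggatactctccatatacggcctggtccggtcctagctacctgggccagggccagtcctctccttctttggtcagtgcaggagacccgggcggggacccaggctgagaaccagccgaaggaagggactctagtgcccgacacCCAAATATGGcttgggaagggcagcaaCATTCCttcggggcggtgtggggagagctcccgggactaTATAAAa
Myh7 promoter, chr14:54994627-54994876, minus strand: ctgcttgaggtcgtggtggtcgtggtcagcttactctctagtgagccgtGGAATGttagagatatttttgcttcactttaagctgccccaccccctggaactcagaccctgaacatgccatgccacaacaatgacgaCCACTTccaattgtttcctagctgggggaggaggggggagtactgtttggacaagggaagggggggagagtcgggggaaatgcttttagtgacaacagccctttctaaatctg

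In the Nppa window the letters AAGTGG lay 239 to 234 bases and TATAAA 9 to 4 bases before the start. The Acta1 window held the CArG box 73 to 64 bases, CATTCC 46 to 41 bases and TATAAA 7 to 2 bases before the start. These distances are from the RefSeq start. The Acta1 gene position given below starts at 123894751 on the minus strand, downstream of it, and would make each distance longer. In the Myh7 window, CATTCC and AAGTGG lay on the opposite strand, 201 to 196 and 113 to 108 bases before the start. RefSeq lists another Myh7 start, whose window (chr14:54994550-54994799) held AAGTGG on the opposite strand 190 to 185 bases before it and no other match. The windows of Nppb and Ankrd1 overlap annotated exons of longer transcripts by 112 and 250 bases, so only short stretches around their matches are given.
Nppb, chr4:147985795-147985821, plus strand: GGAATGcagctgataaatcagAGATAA
Ankrd1, chr19:36120039-36120064, minus strand: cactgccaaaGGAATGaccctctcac
Ankrd1, chr19:36119952-36119977, minus strand: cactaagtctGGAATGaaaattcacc
Ankrd1, chr19:36119876-36119901, minus strand: ggctggaagaTTATCTcacccagccc

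The Nppb stretch of 27 bases joins CATTCC on the opposite strand to AGATAA, which lay 84 to 79 bases before the start, and TATAAA followed 31 to 26 bases before it. Ankrd1 held CATTCC at 2 places, 210 to 205 and 123 to 118 bases before the start, and AGATAA 47 to 42 bases before it, each on the opposite strand. No match of these letters lay in the windows of Npr1, Npr2, Npr3 and Tnni1.

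The comparison of DMSO with Sham asks what changed in infarcted hearts without the inhibitor. Nppa, Nppb, Myh7 and Ankrd1 rose. The call rests on the quasi-likelihood test of edgeR, with p-values adjusted by Benjamini-Hochberg over all 17117 genes tested, and on an adjusted p under 0.01. By this rule 4 of 9 members were higher, whereas 12.9% of all genes were, and 0 of 9 were lower, against 9.6% of all genes. The 2 groups did not overlap for 5 members that were higher and 1 that was lower, against 25.1% and 23.6% of all genes. The median log2 fold change of the 9 members was 1.48, and that of all genes tested was 0.00. In A10i against Sham, Nppa, Nppb and Ankrd1 rose and Npr3 fell, that is 3 of 9 members higher (13.7% of all 16971 genes) and 1 of 9 lower (9.11%). There 5 members were higher and 2 were lower without overlap of the groups, against 24.8% and 23.5% of all genes. The members' median log2 fold change was 0.88, and that of all genes was -0.01. Both comparisons share the 3 Sham mice, so their values are set side by side and not related to each other. Markers of other cells changed in the same comparisons. All 5 neutrophil markers were higher in both infarcted groups (median log2 fold change 6.95 in DMSO and 5.26 in A10i), as were 4 of 5 leukocyte markers in DMSO and 5 of 5 in A10i, 3 and 6 of 7 fibroblast markers, and 3 of 5 mesothelial markers in each. Of 6 endothelial markers, 3 were lower in DMSO and 1 in A10i. Their part in the members' values was not tested.

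Between A10i and DMSO, the question of the inhibitor's effect, edgeR called 0 of 9 members, as it called 0% of the 16792 genes tested. At an unadjusted p under 0.05, 3 members passed, Nppb, Ankrd1 and Myh7, and each was lower in A10i. By the same rule 6.73% of all genes were lower and 7.1% were higher. The groups did not overlap for 2 of 9 members, Nppb and Ankrd1, both lower in A10i, whereas 4.11% of all genes were lower and 4.01% higher without overlap. The log2 fold change was negative for 7 of 9 members, with a median of -0.26 against 0.00 over all genes. DESeq2 called 1 member, Ankrd1, as lower, while it called 0.388% of its 31662 genes lower and 0.328% higher. These are all genes with any count, without the filter on low counts, so the shares are not on the same base as those of edgeR. The limma-voom test called 0 members. The plot of fold changes shows the 3 comparisons.

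**Figure D1:**
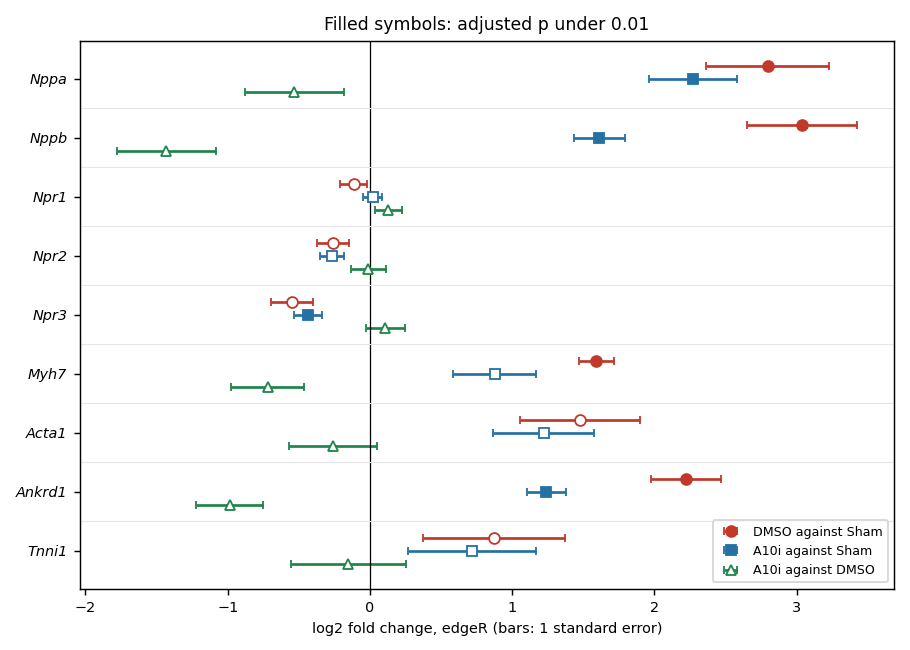
Log2 fold change of each gene from edgeR's quasi-likelihood test (x axis, bars are 1 standard error) in 3 comparisons, with filled symbols for an adjusted p under 0.01. Nppa, Nppb and Ankrd1 are filled in both comparisons with Sham, and no symbol of A10i against DMSO is filled.

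Nppa (ENSMUSG00000041616, chr4:148000722-148002079, GRCm38), which encodes ANP, the peptide that atrial cardiomyocytes store, rose in both infarcted groups. Sham mice S1, S2 and S3 had 3870, 2393 and 5192 normalized counts of Nppa. In DMSO mice A105, A127, A128 and A129 these were 31028, 22887, 11811 and 40520. A10i mice A116, A117, A119 and A120 had 22410, 16014, 12245 and 22735. Each infarcted mouse lay above each Sham mouse, and the A10i values lay within the span of the DMSO values. DMSO mice exceeded Sham by a log2 fold change of 2.80 (SE 0.43, adjusted p = 0.00152, edgeR), or 6.94-fold. A10i mice exceeded Sham by a log2 fold change of 2.27 (SE 0.31, adjusted p = 0.00103), or 4.82-fold. Without Sham mouse S1 the adjusted p of the first comparison was 0.0124, and without A10i mouse A116 that of the second was 0.0158, so that both calls were then lost. Over the alternatives run, the adjusted p lay between 4.73e-08 and 0.0197 in the first and between 2.61e-09 and 0.0158 in the second. Between A10i and DMSO the log2 fold change of Nppa was -0.53 (SE 0.34, adjusted p = 0.540), and it was -0.25 without DMSO mouse A129.

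Atrial cardiomyocytes hold much Nppa, and their markers were therefore read in the same libraries. The summed normalized counts of 6 atrial markers ranged from 430 to 896 in Sham, from 622 to 2858 in DMSO and from 1557 to 3295 in A10i. In DMSO mice both the atrial sum and Nppa were lowest in A128 and highest in A129. In A10i mice both were lowest in A119. The atrial sum was highest there in A116 (3295), whereas Nppa was highest in A120 (22735), whose atrial sum was 2273. Between the infarcted groups, A10i had the higher range of atrial sums and the lower mean of Nppa (18351 against 26562 in DMSO). Of the 5 atrial markers tested, 0 were called in DMSO against Sham and 2 in A10i against Sham. Bmp10, an atrial secreted factor, had 0 counts in 10 of the 11 libraries and 1 count in A10i mouse A120. The part of atrial tissue in the Nppa values was not tested.

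Nppb (ENSMUSG00000029019, chr4:147985788-147987205) lies next to Nppa on the same strand, 13516 bases upstream of it, and encodes BNP, whose release by the ventricle is measured in heart failure. Its normalized counts were 1937, 2062 and 1943 in Sham mice S1, S2 and S3. DMSO mice A105, A127, A128 and A129 had 29526, 11075, 9541 and 15208. In A10i mice A116, A117, A119 and A120 the values were 7325, 4648, 7349 and 4854. The 3 groups did not overlap, with Sham lowest, A10i between and DMSO highest, and DMSO mouse A105 stood well above the other infarcted mice. Against Sham, Nppb rose by a log2 fold change of 3.04 in DMSO (SE 0.39, adjusted p = 0.000644, 8.22-fold) and of 1.61 in A10i (SE 0.18, adjusted p = 0.000415, 3.06-fold). Both calls held under every alternative run. Relative to the mean, the SD between mice was 3.57% for Sham, 55.8% for DMSO and 24.7% for A10i.

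A10i mice had 6044 ± 1495 normalized counts of Nppb (SD, n = 4) and DMSO mice 16337 ± 9112 (SD, n = 4). The log2 fold change was -1.43 (SE 0.35, unadjusted p = 0.00225, adjusted p = 0.132, edgeR), so the difference did not pass the threshold. An exact permutation test of the log2 normalized counts (pseudocount 0.5) over the mice gave p = 0.0286, two-sided, the smallest that 4 against 4 mice allow. Without DMSO mouse A105 the log2 fold change was -0.98. The adjusted p over all alternatives lay between 0.0421, with DESeq2, and 0.357, without A10i mouse A120, and none of the 17 passed 0.01.

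**Figure D2:**
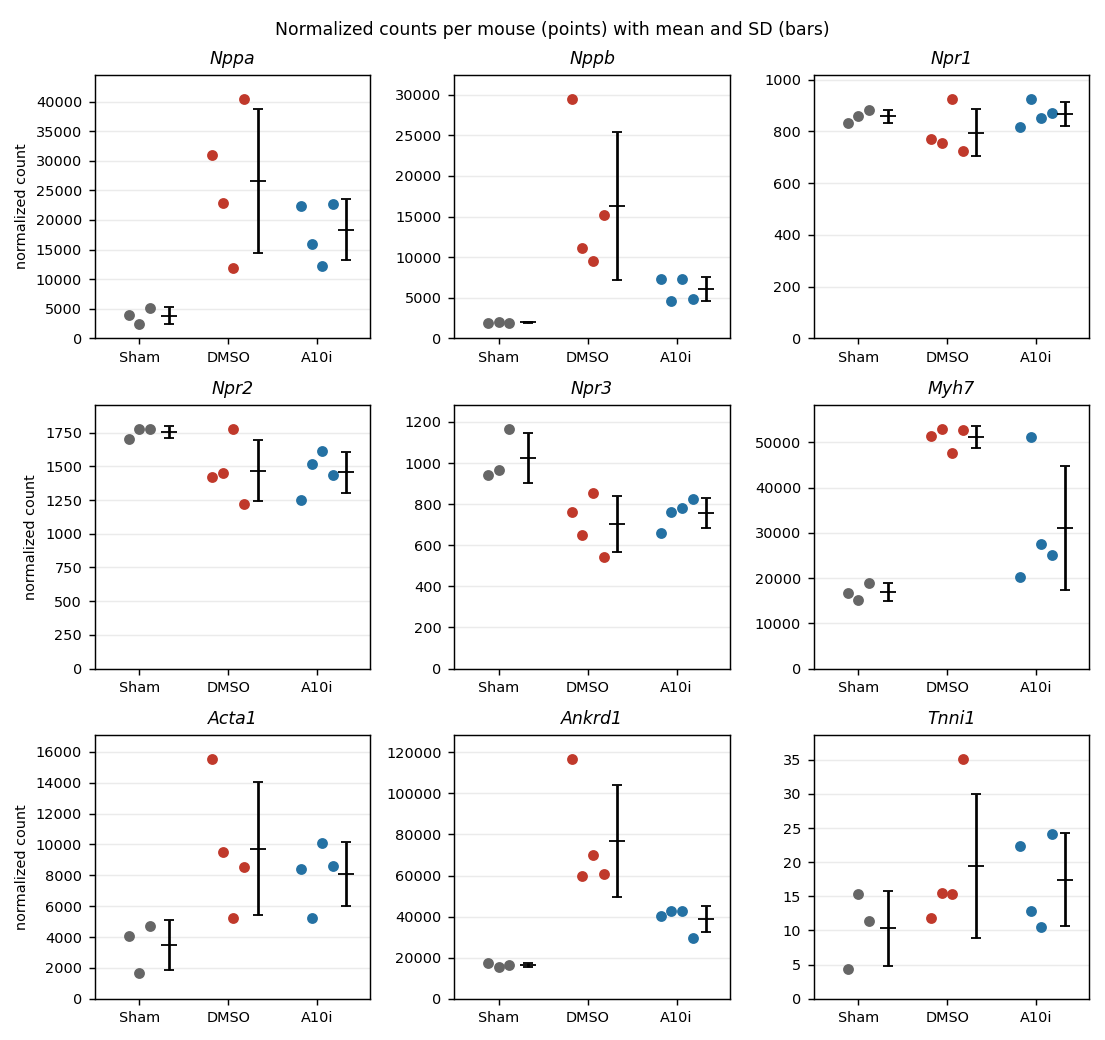
Normalized counts (y axes, from 0) of the 9 genes in each mouse (points) with the mean and SD of each group (bars), for 3 Sham, 4 DMSO and 4 A10i mice. Nppb and Ankrd1 show 3 groups without overlap, whereas the 4 A10i points of Nppa lie within the span of the DMSO points.

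The receptor genes had far smaller fold changes than the peptide genes, and Npr3 alone passed the test in one comparison. Npr1 (ENSMUSG00000027931, chr3:90450591-90465866) encodes the cyclase that ANP and BNP activate. It had 832, 860 and 881 normalized counts in Sham mice, 771, 753, 927 and 725 in DMSO mice and 816, 926, 853 and 873 in A10i mice, each in the order of mice given above. The groups overlapped in all 3 comparisons. The log2 fold changes of Npr1 were -0.11 (SE 0.10) in DMSO against Sham, 0.02 (SE 0.07) in A10i against Sham and 0.13 (SE 0.09) in A10i against DMSO, with adjusted p of 0.371, 0.847 and 0.587.

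Npr2 (ENSMUSG00000028469, chr4:43631935-43651244) encodes the cyclase for the C-type peptide. Its normalized counts were 1706, 1778 and 1779 in Sham mice, 1424, 1453, 1774 and 1222 in DMSO mice and 1251, 1516, 1616 and 1437 in A10i mice. All A10i mice lay below the Sham mice, and of the DMSO mice A128 alone reached into the Sham range. The log2 fold changes were -0.26 (SE 0.11, adjusted p = 0.0918) in DMSO against Sham, -0.27 (SE 0.08, adjusted p = 0.0275) in A10i against Sham and -0.01 (SE 0.12, adjusted p = 0.983) in A10i against DMSO. Without DMSO mouse A128 the first was -0.36 and its adjusted p was 0.00885, against 0.00885 to 0.698 over all alternatives.

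Npr3 (ENSMUSG00000022206, chr15:11839896-11907287) encodes the clearance receptor. Sham mice had 943, 965 and 1167 normalized counts of Npr3. In DMSO mice these were 762, 651, 856 and 542, and A10i mice had 659, 761, 781 and 827. All infarcted mice lay below the Sham mice, and the infarcted groups overlapped. In A10i against Sham, Npr3 fell by 0.44 on the log2 scale (SE 0.10, adjusted p = 0.00621). That call was lost without A10i mouse A117 (adjusted p = 0.0124), A10i mouse A119 (0.0121) or Sham mouse S1 (0.0138), S2 (0.0167) or S3 (0.0347), and over all alternatives the adjusted p lay between 0.000164 and 0.995. In DMSO against Sham the log2 fold change was -0.55 (SE 0.15, adjusted p = 0.0167), which passed 0.01 without DMSO mouse A128 (0.00520), and over all alternatives the adjusted p lay between 0.00413 and 0.887. A10i and DMSO differed by 0.11 (SE 0.14, adjusted p = 0.781).

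The directions of the receptor genes depended on how the libraries were scaled, while those of the peptide genes did not. With library size alone, the median log2 fold change of all genes moved to 0.21 in DMSO against Sham and to 0.18 in A10i against Sham. The 12 cardiomyocyte markers had a median log2 fold change of -0.64 in DMSO and -0.45 in A10i against Sham, with 5 and 4 of them called lower. The list holds Myh6 and Tnni3, which are also used below as partners of members, and Myl2. With scaling to these markers the median of all genes moved to 0.59 and 0.44 in the same comparisons, and to -0.14 in A10i against DMSO. Under the marker scaling Npr3 had a log2 fold change of 0.030 in DMSO against Sham and of -0.00090 in A10i against Sham, both below the median of all genes under that scaling. Nppb had 3.59 and 2.07 under it, and -1.52 in A10i against DMSO.

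**Figure D3:**
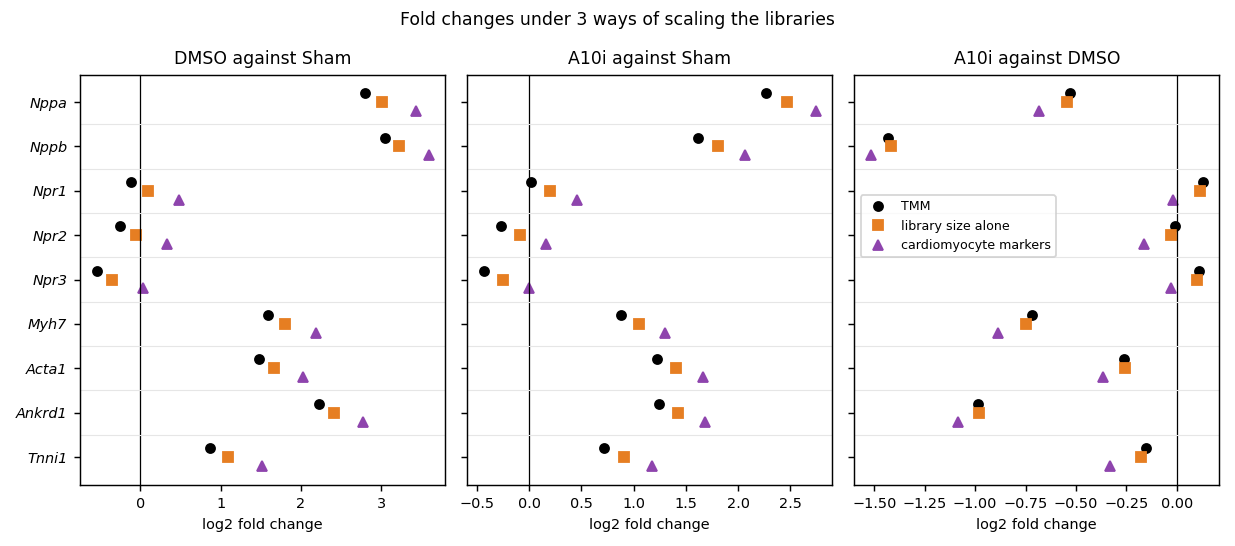
Log2 fold changes (x axes) of the 9 genes in the 3 comparisons, with the libraries scaled by TMM, by library size alone or by 12 cardiomyocyte markers (symbols). In comparisons with Sham, Nppa, Nppb, Myh7, Acta1, Ankrd1 and Tnni1 stay right of 0 under all 3, and Npr1, Npr2 and Npr3 lie nearer to 0.

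Myh7 (ENSMUSG00000053093, chr14:54970684-54994626) encodes the slow β-myosin heavy chain of the fetal mouse ventricle and rose in infarcted hearts that received DMSO. Sham mice had 16746, 15142 and 18959 normalized counts. DMSO mice A105, A127, A128 and A129 had 51337, 53037, 47735 and 52705, whereas A10i mice A116, A117, A119 and A120 had 20198, 51159, 27552 and 25207. DMSO mice lay close together with a relative SD of 4.74%, while A10i mouse A117 lay within the DMSO range and the other A10i mice lay between Sham and DMSO. Against Sham, the log2 fold change was 1.59 in DMSO (SE 0.12, adjusted p = 5.23e-05, 3.01-fold) and 0.88 in A10i (SE 0.29, adjusted p = 0.0424), and the second did not pass 0.01. It was 0.53 without A10i mouse A117. Between A10i and DMSO it was -0.72 (SE 0.26, unadjusted p = 0.0184, adjusted p = 0.254), with p = 0.0571 in the exact permutation test, two-sided. Without A10i mouse A117 it was -1.07, and the adjusted p lay between 0.0873 and 0.525 over all alternatives.

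Myh6, which encodes the fast α-myosin of the adult mouse ventricle, moved the opposite way. The share of Myh7 in the sum of both genes, per kilobase of annotated exon, needs no scaling between libraries. The size of a share depends on these exon lengths, whereas differences of a log2 ratio between groups do not. The share was 1.34, 1.17 and 1.49% in Sham mice S1, S2 and S3. In DMSO mice A105, A127, A128 and A129 it was 7.13, 8.30, 8.72 and 10.6%. A10i mice A116, A117, A119 and A120 had 3.24, 7.08, 3.07 and 3.29%. The groups did not overlap, but A10i mouse A117 all but reached DMSO mouse A105. Mean shares were 1.34% ± 0.162 (SD, n = 3), 8.69% ± 1.44 (SD, n = 4) and 4.17% ± 1.94 (SD, n = 4). The log2 ratio of Myh7 to Myh6 was 1.21 lower in A10i than in DMSO (from -3.41 to -4.62). The exact permutation test, two-sided, gave p = 0.0286 and an adjusted p of 0.0857 over 9 ratio tests. With so few mice, no adjusted p over these 9 tests could fall below 0.05. The log2 ratio was 2.80 higher in DMSO and 1.60 higher in A10i than in Sham, with an exact p = 0.0571 for each, the smallest that 4 against 3 mice allow. Myh6 itself fell by 1.19 on the log2 scale in DMSO (SE 0.16, adjusted p = 0.000637) and by 0.79 in A10i (SE 0.14, adjusted p = 0.00224) against Sham. Between A10i and DMSO its log2 fold change was 0.39 (SE 0.19, adjusted p = 0.393).

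Myh6 and Myh7 are neighbouring paralogs with much shared sequence, and only uniquely aligned reads were counted. On the other strand of Myh7 lies the noncoding gene Mhrt, named here after its values were seen. Mhrt had 2010 to 2532 normalized counts in Sham, 525 to 1188 in DMSO and 920 to 1462 in A10i, the opposite order to Myh7. Gm13054, antisense to Nppa and also named afterwards, had 23.9 to 40.2 in Sham, 125 to 269 in DMSO and 131 to 228 in A10i, far below Nppa itself. The strand setting of the counting is not given in the sources used here, so the reads of such pairs may not be fully apart.

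Acta1 (ENSMUSG00000031972, chr8:123891769-123894751) encodes skeletal α-actin, which fetal and overloaded hearts also express. Its normalized counts were 4076, 1666 and 4685 in Sham mice, 15537, 9536, 5204 and 8560 in DMSO mice and 8387, 5235, 10109 and 8591 in A10i mice. All infarcted mice lay above the Sham mice, while DMSO and A10i mice overlapped. Neither difference from Sham passed 0.01, with a log2 fold change of 1.48 in DMSO (SE 0.42, adjusted p = 0.0222) and of 1.22 in A10i (SE 0.35, adjusted p = 0.0264). For A10i against DMSO it was -0.26 (SE 0.31, adjusted p = 0.761), and 0.06 without DMSO mouse A105. The share of Acta1 in the sum with Actc1, the cardiac α-actin, was 1.71% ± 0.789 (SD, n = 3) in Sham, 5.80% ± 1.59 (SD, n = 4) in DMSO and 4.89% ± 0.498 (SD, n = 4) in A10i. The log2 ratio was 1.90 and 1.68 above Sham in DMSO and A10i without overlap (exact p = 0.0571 for each), and it was 0.22 lower in A10i than in DMSO, with overlap (from -4.07 to -4.29, exact p = 0.371). Actc1 did not pass the test in any comparison, with adjusted p of 0.0801, 0.0818 and 0.976.

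**Figure D4:**
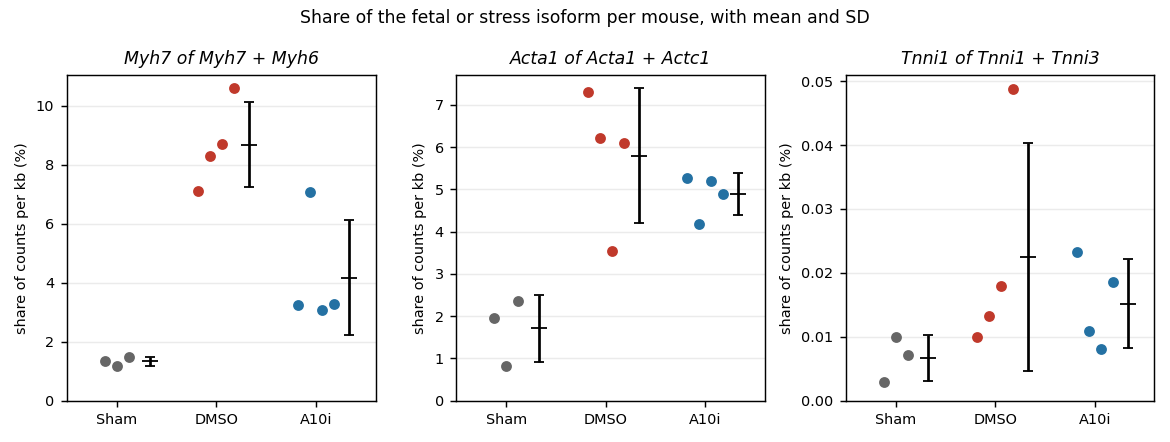
Share (y axes, percent of counts per kilobase, from 0) of Myh7, Acta1 and Tnni1 in the sum with the adult partner gene, per mouse (points) with mean and SD (bars). Of the A10i mice, 3 lie between 3.07 and 3.29% for Myh7 and A117 lies at 7.08%, next to the lowest DMSO mouse at 7.13%.

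Tnni1 (ENSMUSG00000026418, chr1:135779434-135810989) encodes the slow skeletal troponin I of the fetal heart and was near the lower limit of detection, with 4 to 35 counts per library. Sham mice had 4.43, 15.3 and 11.3 normalized counts, DMSO mice 11.9, 15.4, 15.3 and 35.1, and A10i mice 22.3, 12.9, 10.6 and 24.1. The groups overlapped, and no difference was detectable at this depth (adjusted p of 0.188, 0.230 and 0.906). Tnni3, the adult cardiac troponin I, held nearly all counts of the pair, and Tnni1 had a share of 0.00669% ± 0.00359 (SD, n = 3) in Sham, 0.0225% ± 0.0178 (SD, n = 4) in DMSO and 0.0152% ± 0.00696 (SD, n = 4) in A10i. Of the 4 DMSO mice, A129 alone was above 0.0179%. Tnni3 itself lay below Sham in all infarcted mice, with log2 fold changes of -0.66 in DMSO (SE 0.18) and -0.38 in A10i (SE 0.12). Its adjusted p were 0.0152 and 0.0334 with edgeR and 0.000605 and 0.00260 with DESeq2. The ratio below therefore also holds the change of Tnni3. The log2 ratio of Tnni1 to Tnni3 was 1.59 above Sham in DMSO (exact p = 0.0571) and 1.19 above it in A10i (exact p = 0.114). It was 0.39 lower in A10i than in DMSO (from -12.4 to -12.8, exact p = 0.600), and 0.068 higher without DMSO mouse A129.

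Ankrd1 (ENSMUSG00000024803, chr19:36111961-36120099) encodes the cardiac ankyrin repeat protein CARP, a stretch-responsive partner of titin that also enters the nucleus. Its groups were ordered as those of Nppb. Sham mice had 17352, 15653 and 16286 normalized counts of Ankrd1. In DMSO mice A105, A127, A128 and A129 these were 116784, 59878, 70012 and 60559. A10i mice A116, A117, A119 and A120 had 40078, 42741, 42555 and 29515. As for Nppb, the groups did not overlap, DMSO was highest, and A105 led the DMSO mice. The order of the other mice within the groups differed. A10i mouse A117 had the highest Ankrd1 of its group (42741) but the lowest Nppb (4648). DMSO mouse A128 came next to A105 for Ankrd1 (70012) and was lowest for Nppb (9541). Ankrd1 rose against Sham by a log2 fold change of 2.22 in DMSO (SE 0.24, adjusted p = 0.000277, 4.66-fold) and of 1.24 in A10i (SE 0.14, adjusted p = 0.000286, 2.36-fold). Both calls held under every alternative run.

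A10i mice had 38722 ± 6257 normalized counts of Ankrd1 (SD, n = 4) and DMSO mice 76808 ± 27049 (SD, n = 4). The log2 fold change was -0.99 (SE 0.23, unadjusted p = 0.00172, adjusted p = 0.120, edgeR), and p was 0.0286 in the exact permutation test, two-sided. DESeq2 gave an adjusted p of 0.00183, past 0.01, and edgeR fitted to all 11 libraries gave 0.0359. Over all 17 alternatives the adjusted p lay between 0.00183 and 0.341, and 1 passed 0.01. Without DMSO mouse A105 the log2 fold change was -0.71. Beside these differences, 5 neutrophil markers had a median log2 fold change of -1.95 in A10i against DMSO, with 0 of 5 called by edgeR and a summed level of 60.9 to 115 CPM in DMSO and 11.8 to 40.5 CPM in A10i libraries. The medians were 0.19 for 12 cardiomyocyte, 0.78 for 5 atrial, 0.76 for 5 mesothelial, 0.64 for 5 red blood cell and 0.43 for 7 fibroblast markers, with 0 called in each list by edgeR. The part of these cells in Nppb, Ankrd1 and Myh7 was not tested. Scaled to the cardiomyocyte markers, Nppb, Ankrd1 and Myh7 had log2 fold changes of -1.52, -1.09 and -0.89 in A10i against DMSO, as the plot of the 3 scalings shows.

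Levels of different genes were set side by side per kilobase of all annotated exons of a gene, which can be longer than its RNA in the heart. The order between genes is therefore approximate. By this measure Ankrd1 was the most abundant member in Sham with 5693 ± 298 normalized counts per kb (SD, n = 3). Nppa (4414 ± 1619) came next and overlapped with it. Nppb (2536 ± 90.4), Acta1 (2263 ± 1039) and Myh7 (1967 ± 222) followed, and neighbours in that order overlapped from Nppb to Myh7. In DMSO, Nppa led with 30707 ± 14094 per kb (SD, n = 4), followed by Ankrd1 (26614 ± 9372) and Nppb (20919 ± 11667), and neighbours among these 3 overlapped. In A10i, Nppa (21215 ± 5911) and Ankrd1 (13417 ± 2168) overlapped, and Nppb (7739 ± 1915) lay below Ankrd1 without overlap. In each group Npr2, Npr1, Npr3 and Tnni1 closed the order without overlap between neighbours. The receptors lay at 376, 179 and 109 per kb in Sham, 315, 166 and 74.9 in DMSO and 312, 181 and 80.6 in A10i.

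A list of genes that process and clear the peptides or act in cyclic GMP signalling, also that which nitric oxide activates, had 23 tested. Of these 23, 2 rose and 2 fell in DMSO against Sham, where 12.9% of all genes rose and 9.6% fell. The 23 had a median log2 fold change of -0.26 against 0.00 over all genes. Vasp, an actin regulator phosphorylated by the cyclic GMP dependent kinase, rose by 1.01 on the log2 scale (SE 0.11, adjusted p = 0.000215), and Pde1a, a phosphodiesterase, rose by 0.88 (SE 0.18, adjusted p = 0.00457). Pde2a, a phosphodiesterase that cyclic GMP stimulates, fell by 1.67 on the log2 scale (SE 0.24, adjusted p = 0.000779). Its level was low, with means of 12.1 normalized counts in DMSO and 38.75 in Sham. Pcsk6, the protease that activates corin, fell by 0.98 on the log2 scale (SE 0.15, adjusted p = 0.00109). In A10i against Sham 3 rose and 3 fell (13.7% and 9.11% of all genes), with a median of 0.04. In A10i against DMSO edgeR called 0 of 23, with 5 higher and 1 lower at an unadjusted p under 0.05, against 7.1% and 6.73% of all genes. Gucy1a1, a subunit of the soluble guanylyl cyclase that nitric oxide activates, had 482 ± 22.5 normalized counts in DMSO (SD, n = 4) and 682 ± 56.4 in A10i (SD, n = 4), with a log2 fold change of 0.50 (SE 0.08, adjusted p = 0.0707). Dpp4, a peptidase that can trim BNP, had a log2 fold change of 0.55 (SE 0.13, adjusted p = 0.127).

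Of the 16 adult ventricular partners and other sarcomere isoforms tested, 1 rose and 4 fell in DMSO against Sham (12.9% and 9.6% of all genes), with a median log2 fold change of -0.22. Beside Myh6, Myh7b, another myosin heavy chain, fell by 1.65 on the log2 scale (SE 0.26, adjusted p = 0.00160) and Myl2, the ventricular regulatory light chain, fell by 0.83 (SE 0.20, adjusted p = 0.00917). Tpm2, the β-tropomyosin of slow skeletal and smooth muscle, rose by 1.14 on the log2 scale (SE 0.27, adjusted p = 0.00998). In A10i against Sham 2 rose and 4 fell (13.7% and 9.11% of all genes), with a median of -0.24. In A10i against DMSO edgeR called 0 of 16 (median 0.19), and at an unadjusted p under 0.05 1 was higher (7.1% of all genes), Acta2, the smooth muscle actin.

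Of 20 listed ankyrin repeat and stretch response genes of the I-band and Z-disc, 5 rose and 3 fell in DMSO against Sham (median 0.69). In A10i against Sham 6 rose and 3 fell (median 0.14). Of all genes, 12.9% rose and 9.6% fell in the first and 13.7% and 9.11% in the second. Pdlim3, a Z-disc protein, rose by 1.15 on the log2 scale (SE 0.11, adjusted p = 0.000154) and Nes, an intermediate filament protein, by 1.22 (SE 0.18, adjusted p = 0.00107) in DMSO. Tcap, the telethonin that caps titin, fell by 1.75 on the log2 scale (SE 0.13, adjusted p = 4.17e-05) and Myoz2, a calcineurin-binding Z-disc protein, fell by 0.63 (SE 0.13, adjusted p = 0.00428). In A10i against DMSO edgeR called 0 of 20, with a median of -0.37 and with 5 lower and 1 higher at an unadjusted p under 0.05 (6.73% and 7.1% of all genes). Xirp1, an actin-binding protein of the intercalated disc, had the smallest p of these, with a log2 fold change of -1.02 (SE 0.30, adjusted p = 0.184).

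The last list had 27 tested genes, factors that act on promoters of natriuretic peptide and fetal genes and also Rcan1, which is not such a factor. Of these 27, 6 rose and 2 fell in DMSO against Sham (median 0.20), beside 12.9% and 9.6% of all genes. In A10i against Sham 8 rose and 3 fell (median 0.07), beside 13.7% and 9.11% of all genes. The factors whose letters were searched above, GATA4, NKX2-5, TEAD1 and SRF among them, were on that list, and none of these 4 genes passed the test in a comparison with Sham. On the log2 scale, in DMSO Junb rose by 2.41 (SE 0.12) and Fos by 3.75 (SE 0.27), both parts of AP-1, and Rcan1, a calcineurin target and inhibitor, by 1.88 (SE 0.10), with adjusted p of 1.07e-05, 4.17e-05 and 1.07e-05. Mrtfb, a coactivator of serum response factor, fell by 0.81 on the log2 scale (SE 0.08, adjusted p = 0.000152), and Nfatc2, a calcineurin-dependent factor, fell by 0.79 (SE 0.11, adjusted p = 0.000598). In A10i against DMSO edgeR called 0 of 27, with 4 lower and 4 higher at an unadjusted p under 0.05 (6.73% and 7.1% of all genes). Rcan1 had 5994 ± 527 normalized counts in DMSO (SD, n = 4) and 3666 ± 738 in A10i (SD, n = 4), a log2 fold change of -0.71 (SE 0.14, adjusted p = 0.0931), Junb -0.62 (SE 0.15, adjusted p = 0.139) and Mrtfb 0.36 (SE 0.08, adjusted p = 0.105).

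Among the 8 infarcted mice, members fell into different patterns, described here by Pearson's r of log2 CPM without a test. The points share the treatment groups and the scaling of each library. Without centring, the pair most alike of 36 was Nppb and Ankrd1 (r = 0.91), which had 0.75 after each treatment group was centred on its mean. Nppb and Acta1 had 0.66 (0.84 centred), and the pair most alike after centring was Npr2 and Npr3. Npr2 and Npr3 had 0.81 (0.85 centred) and Npr1 and Npr3 had 0.81 (0.80 centred). The peptides Nppa and Nppb had 0.55 despite their shared position, and Nppa and Npr2 had the lowest value at -0.85. Of 12085 genes with a mean of at least 100 counts, the 3 most like Ankrd1 were Rrs1 (0.99), Mpp5 (0.98) and Ap1m1 (0.98), and those most like Nppb were Gm9825 (0.99), Zfp568 (0.98) and Mindy1 (0.98). For Nppa they were Gm2991, Rps28 and Gm13493 (0.97 for each), for Npr3 Tcaim (1.00), Amacr (0.99) and Timm29 (0.98), and for Myh7 Tmeff1 (0.98), Tbc1d24 (0.96) and Smyd2 (0.96). No p is attached to these values, since each is the top of a ranking of these 12085 genes over 8 libraries.

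**Figure D5:**
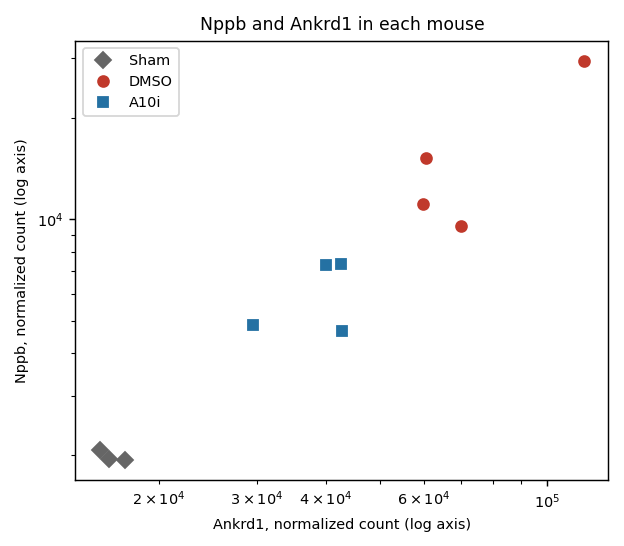
Normalized counts of Ankrd1 (x axis) and Nppb (y axis), both on log axes, in each of the 11 mice. Sham mice lie at the lower left, the 4 A10i mice between and the 4 DMSO mice at the upper right, led by A105 with 116784 and 29526.

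The study examined ADAM10 beside the natriuretic peptides in patients with ischemic cardiomyopathy. Here Adam10 was set against both peptide genes over the 8 infarcted mice, which differ from such patients in species and in the time since infarction, so the values below do not bear on that relation. Adam10 had 1461 ± 60.4 normalized counts in Sham (SD, n = 3), 1798 ± 419 in DMSO (SD, n = 4) and 1906 ± 281 in A10i (SD, n = 4). It passed 0.01 in no comparison with edgeR (adjusted p of 0.164, 0.0142 and 0.853). With DESeq2 it passed in A10i against Sham (adjusted p = 0.00547), where all A10i mice lay above the Sham mice. Pearson's r of Adam10 with Nppa was 0.40 (permutation p = 0.330) and Spearman's rho was 0.31 (permutation p = 0.462). With Nppb r was -0.19 (permutation p = 0.686) and rho was -0.10 (permutation p = 0.840). Adjusted over the 2 relations, the p of r were 0.660 and 0.686, and those of rho were 0.840 and 0.840. Without the 2 mice farthest from the median of Adam10, r was -0.26 for Nppa and -0.73 for Nppb. Centred on the treatment group, r was 0.54 for Nppa (permutation p = 0.306) and -0.03 for Nppb (permutation p = 0.955). No relation was detected with either peptide gene in these mice.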

How the data were processed

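Poly(A) RNA was made into strand-specific libraries and sequenced as read pairs. Per the methods and the submitters' processing notes, the authors aligned the pairs to mm10 (the GRCm38 assembly) with GSNAP and assigned reads with a single alignment to Ensembl genes (featureCounts 2.0.1). The deposited values are raw counts per gene, without normalization. The 92 rows of spike-in sequences, at most 0.000194% of a library, were left out, and 55154 of the 55421 gene rows were named by a table of symbols. Positions came from GENCODE M21 and promoters from RefSeq, both on GRCm38. Each pair of groups was fitted on its own libraries with edgeR 4.0.16 in R 4.3.3 (filterByExpr, TMM, robust quasi-likelihood test, two-sided), and p-values were adjusted by Benjamini-Hochberg over all genes tested, with a threshold of 0.01. DESeq2 1.42.0, limma-voom (limma 3.58.1), other scalings, other filters, a joint fit of the 11 libraries, a looser threshold (0.05) and fits that each left out 1 mouse were the alternatives. The scripts were tested on simulated counts. Ratios took a pseudocount of 0.5 counts and an exact permutation test over mice, adjusted over 9 tests. The independent hypothesis weighting that the authors added to DESeq2 was not used.

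The genes followed, the gene lists and the tests were chosen with earlier results of these data known. Named from each list were the genes of smallest p in DMSO against Sham, up to 3 in each direction, and up to 2 in each direction in A10i against DMSO, and the 3 genes most like 5 members. Genes of near-identical families are uncertain where reads could not be placed. The libraries held 21702623 to 29511768 counts on genes, and the spread between mice includes the counting error. No table of proteins was used here.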

Additional observations from a re-analysis of the deposited data

Results flagged for a closer look

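Of 24 groups of 4 mice in which the 9 members and the 3 isoform ratios were searched for a mouse that stands apart, 1 was found. In the log2 ratio of Myh7 to Myh6, A10i mouse A117 stood apart from the other A10i mice: its gap to the nearest of them was 0.921 of the range of the group. A117 had a ratio of -3.71, whereas the other A10i mice lay between -4.98 and -4.88. Chance alone gives such a mouse in about 1 of 20 groups. Without A117, the ratio in A10i was 1.51 below that in DMSO on the log2 scale, and with it 1.21 below.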

How the results depend on the processing

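At a threshold of 0.05, 7 members were called in A10i against Sham in place of 4, and DESeq2 called 1 member in A10i against DMSO in place of 0. Without DMSO mouse A128, 6 members were called in DMSO against Sham in place of 4. Fold changes of members turned sign only where they had not passed the test. With library size alone, Npr1 had a log2 fold change of 0.091 in DMSO against Sham. Scaled to cardiomyocyte markers, Npr1, Npr2 and Npr3 had 0.48, 0.32 and 0.030 in DMSO against Sham, Npr2 had 0.16 in A10i against Sham, and Npr1 and Npr3 had -0.018 and -0.031 in A10i against DMSO. When each mouse was left out in turn, Npr1 lay between -0.012 and 0.049 in A10i against Sham, and in A10i against DMSO Npr2 lay between -0.090 and 0.096, Acta1 between -0.47 and 0.061 and Tnni1 between -0.34 and 0.28. The Myh7 to Myh6 log2 ratio in A10i minus DMSO lay between -1.51 and -1.09, each with an exact permutation p of 0.0571, the smallest that 3 against 4 mice allow, and that of Tnni1 to Tnni3 lay between -0.68 and 0.068. The correlation of Adam10 with Nppa was -0.26 without the 2 mice farthest from the median, and with Nppb it was 0.18 under marker scaling. The call of Nppa was lost without the filter on low counts in both comparisons with Sham (adjusted p = 0.0197 and 0.0115), and that of Npr3 in A10i against Sham with library size alone (0.0530), marker scaling (0.995) and all 11 libraries (0.0309). Under marker scaling Acta1 passed 0.01 in both comparisons with Sham and Npr1 and Myh7 in A10i against Sham. Over the alternatives of single members, 404 of 439 kept their direction and their side of the threshold. Of these 404, 145 were in A10i against DMSO, where the main fit called 0 members, so the total says little about the calls. In A10i against Sham, the call of Npr3 held in 8 of 16 alternatives, that of Nppa in 14 and those of Nppb and Ankrd1 in all 16. The causes were not tested.

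No paired analysis was possible because the mice of different groups share no replicate number. The spread between mice includes counting error, and the part of depth in it was not tested.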
